A study of Mus musculus with 6 samples.

Results

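Serpins are a superfamily of proteins that share one fold, and most of them inactivate proteases. The serpin genes were taken as every gene of the array whose symbol starts with Serpin, a clade letter and a number, with Serpina7 left out, and the feature with the highest mean stood for each gene. This gave 47 serpin genes of the 18820 genes measured. All 47 had a single feature. Another 5 features carried several serpin symbols of the Serpina1 and Serpinb9 families and were not used, so that 4 further genes seen on them alone are not described.

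The values came from primary hepatocytes of male wildtype C57BL/6J mice aged 8 to 10 weeks, cultured in 60 mm dishes and transduced at 100 viral particles per cell. The control dishes received a control virus that expressed green fluorescent protein (Ad-GFP), and the others received a virus that expressed nuclear CREBH (Ad-nuclear CREBH), both of them adenoviruses. CREBH is a transcription factor of the endoplasmic reticulum membrane in hepatocytes, and its nuclear form is the part that reaches the promoters of genes. Both groups therefore carried a virus that drives overexpression, and RNA from 3 dishes each was hybridized to Affymetrix mouse gene arrays 24 h after transduction. The sources do not say whether dishes of a group came from separate animals, so every p-value measures the spread between dishes. The question was which serpin transcripts differed between Ad-nuclear CREBH and Ad-GFP.

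An inhibitory serpin offers an exposed reactive center loop as bait. When a protease cleaves this loop, the serpin refolds and traps the enzyme in a covalent complex, which the liver clears. Hepatocytes secrete most of the serpins of plasma, among them the inhibitors of elastase, thrombin, plasmin and the first component of complement. Serpins of clade B lack a classical signal peptide and act mainly inside cells, where several protect against granzymes or lysosomal cathepsins. A few members have lost inhibition and carry hormones or fold collagen.

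Promoter sequence was available for 40 of the 47 genes in RefSeq (GRCm38.p6). The 60 bases before the transcription start are shown for 6 genes from a pair of families of closely related copies, of which one holds genes that fell and the other genes that did not pass. Serpinb9c, Serpinb9d and Serpinb9e fell with Ad-nuclear CREBH, and each holds TGACGT, the core of the cAMP response element, shown in capitals. They are shown for this shared motif, which is absent from the windows of the other fallen family members, Serpinb9 and Serpinb9b, and from that of Serpinb6b.

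Serpinb9c (chr13:33159755-33159814, minus strand): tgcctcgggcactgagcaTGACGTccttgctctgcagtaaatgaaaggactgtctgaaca

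Serpinb9d (chr13:33192895-33192954, plus strand): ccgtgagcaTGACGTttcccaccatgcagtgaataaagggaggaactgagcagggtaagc

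Serpinb9e (chr13:33249548-33249607, plus strand): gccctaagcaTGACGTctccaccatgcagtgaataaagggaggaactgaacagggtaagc

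The sequence of Serpinb9c is that of 1 of its annotated starts, the only one at which the motif was found. The motif began at base -42 in Serpinb9c, base -51 in Serpinb9d and base -50 in Serpinb9e, counted from the start. Over 250 bases upstream, Serpinb9d and Serpinb9e were 88.6% identical, whereas Serpinb9c shared 61.5% with Serpinb9d and 64.4% with Serpinb9e.

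The α1-antitrypsin genes Serpina1b, Serpina1c and Serpina1d did not pass the test, and each holds GTTAAT, which is part of the recognition sequence of the liver factor HNF1, shown in capitals.

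Serpina1b (chr12:103738190-103738249, minus strand): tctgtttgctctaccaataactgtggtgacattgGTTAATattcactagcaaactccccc

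Serpina1c (chr12:103904951-103905010, minus strand): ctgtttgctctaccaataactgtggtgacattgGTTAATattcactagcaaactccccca

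Serpina1d (chr12:103773634-103773693, minus strand): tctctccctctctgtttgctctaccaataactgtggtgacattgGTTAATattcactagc

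Identity over 250 upstream bases was 90.9% between Serpina1b and Serpina1c, 85.1% between Serpina1b and Serpina1d, and 84.3% between Serpina1c and Serpina1d.

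Motifs were searched on both strands of windows of 300 bases that reach past the start. A serpin gene was counted if any of its promoters matched (47 promoters for 40 genes). The shares of all promoters are of single promoters, so the 2 are not strictly alike. TGACGT was in 3 of the 10 fallen genes with a promoter, not in Serpina5, Serpinb1b, Serpinb6a, Serpinb6b, Serpinb9, Serpinb9b or Serpinf1, and otherwise only in Serpina3b among the 28 that did not pass, against 7.51% of all 32851 promoters. GTTAAT was in 0 of the 10 fallen genes and in 6 of the 28, against 7.1% of all promoters. CCACG, the end of the endoplasmic reticulum stress element, was in 1 fallen gene, Serpinb6a, and in 5 of the 28, against 32.8% of all promoters. The STAT motif TTCNNNGAA was in 2 fallen genes, Serpinb6a and Serpinb9c, and in 3 of the 28, against 8.3%. The C/EBP motif TTGCNNAA was in 1 fallen gene, Serpina5, and in 9 of the 28, against 10.8%. Neither risen serpin gene held any of these letters in its window. These matches describe sequence and do not show binding, and those of near-identical promoters are not independent.

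The targeted gene was measured first. Creb3l3, which encodes CREBH, had log2 values of 8.49, 8.02 and 8.21 with Ad-GFP and of 9.97, 10.46 and 10.59 with Ad-nuclear CREBH. The groups did not overlap, and the difference was 2.10 on the log2 scale (SE 0.19, limma adjusted p = 9.0e-05). The virus itself carried mouse nuclear CREBH cDNA. How much of this signal came from the virus and how much from the cells' own gene was not tested.

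More serpin transcripts fell than rose with Ad-nuclear CREBH. At an adjusted p under 0.05 (limma, Benjamini-Hochberg over all genes), 15 serpin genes fell, 2 rose and 30 did not pass. Among all 18820 genes 18.2% fell and 19.2% rose. The median log2 fold change of the serpins was 0.02, close to the 0.04 of all genes, and single members ranged from -4.30 to 0.68. With each array centered on its median, which moved the median of all genes from 0.04 to 0.18, 14 serpins fell and 5 rose, and the split of all genes went from 3427 falls and 3615 rises to 2852 falls and 4814 rises. Of the 15 that fell, 7 lay outside clade B and 8 within it.

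The study's criteria name a p under 0.001, a fold over 0.5 (Ad-GFP) or over 2 (Ad-CREBH) and an expression value over 300. They do not say in which samples this value holds. Here the p was taken as unadjusted and the fold as over 2 or under 0.5. Applied here to limma's p, with a linear mean over 300 in at least 1 group, 3 serpins fell and 0 rose, against 3.1% and 4.91% of all genes. These were Serping1, Serpina10 and Serpinb6a. The count was 1 where both group means had to exceed 300 and 9 without this minimum, and 5 serpins met the criteria when the first Ad-GFP dish was left out. The groups did not overlap for 16 serpins with Ad-nuclear CREBH lower and for 6 with it higher, against 23.1% and 26.2% of all genes. Only 11 serpins had a linear group mean over 300, and 30 lay under the median level of all genes (log2 5.24) in both groups. The values carry no flag for background, so that a log2 value under about 4, called dim here, cannot be told from absence of the transcript. No linear fold is given for a fall to such values, and its log2 difference is printed as read, not as a measured size.

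**Figure D1:**
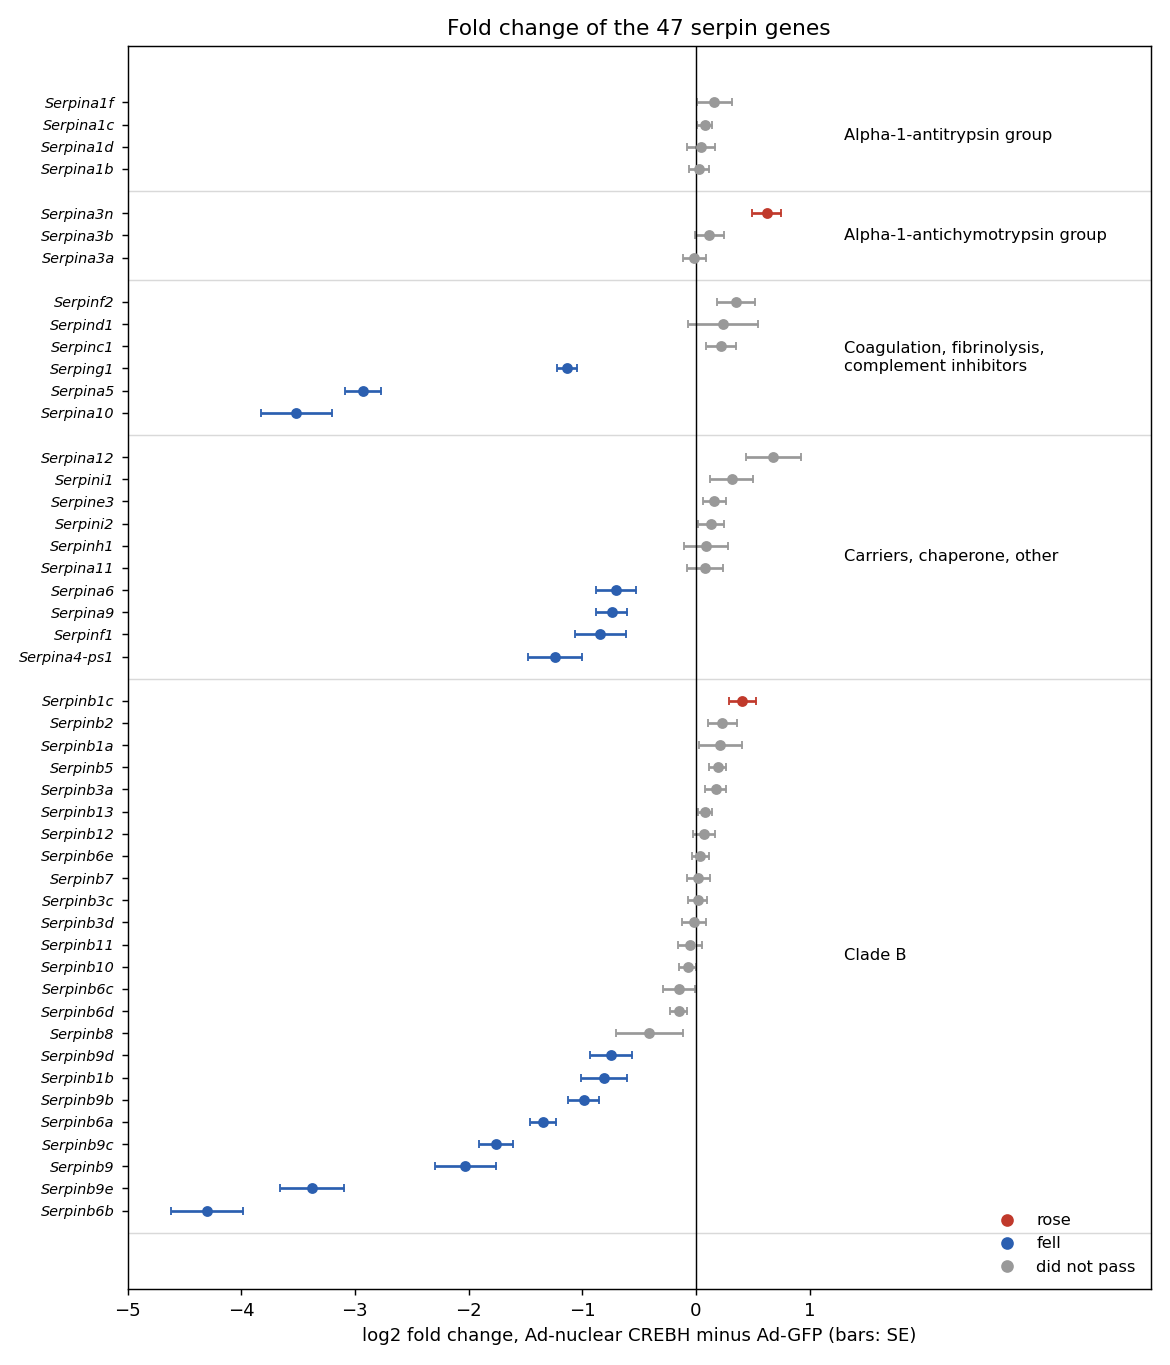
Log2 fold change of each of the 47 serpin genes, Ad-nuclear CREBH minus Ad-GFP (horizontal axis), grouped by role, with bars for the SE from limma (n = 3 dishes per group). The 15 genes that fell reach down to -4.30 (Serpinb6b, which ended in the dim range), whereas the 2 that rose stay at 0.63 and 0.41.

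The α1-antitrypsin group, the elastase inhibitors of plasma, held 4 measured genes, and 0 of them passed the test in either direction (median 0.06). Serpina1b had log2 values of 12.70, 12.52 and 12.50 with Ad-GFP and of 12.74, 12.50 and 12.54 with Ad-nuclear CREBH. Serpina1c had 12.84, 12.70 and 12.74 with Ad-GFP and 12.88, 12.76 and 12.89 with Ad-nuclear CREBH. The groups overlapped for both genes. The difference was 0.02 for Serpina1b (SE 0.09, limma adjusted p = 0.862), with a 95% interval of 0.884- to 1.17-fold. For Serpina1c it was 0.08 (SE 0.07, limma adjusted p = 0.413), with an interval of 0.949- to 1.18-fold. Serpina1d, with means of 9.58 and 9.62, had an interval of 0.847- to 1.26-fold (limma adjusted p = 0.820).

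Serpina1f, the remaining member, was dim at 2.99 and 3.15. The small differences of Serpina1b, Serpina1c and Serpina1d took the opposite sign under cyclic loess normalization, under which Serpina1c passed as lower (-0.19, limma adjusted p = 0.0433). Serpina1b and Serpina1c lay close to the highest value of each array (13.46 to 13.56), and whether their probes bind one another's transcripts was not tested.

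The α1-antichymotrypsin group contained the brightest serpin that rose. Serpina3n, an acute-phase inhibitor of granzyme B and cathepsin G, had log2 values of 11.86, 11.40 and 11.38 with Ad-GFP and of 12.21, 12.15 and 12.15 with Ad-nuclear CREBH. Every Ad-nuclear CREBH dish was above every Ad-GFP dish. The rise was 0.63 on the log2 scale (SE 0.13, 1.54-fold, limma adjusted p = 0.00551). The other measured members of the group, Serpina3a and Serpina3b, were dim at 2.63 to 2.91 in both groups, with differences of -0.01 and 0.12 that did not pass.

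Among the inhibitors of coagulation, fibrinolysis and complement, 3 of 6 measured genes fell and 3 did not pass (median -0.46). Serpina10 encodes the protein Z-dependent protease inhibitor, which blocks activated factor X on membranes. It had log2 values of 8.75, 10.02 and 9.78 with Ad-GFP and of 5.92, 5.82 and 6.27 with Ad-nuclear CREBH. The groups were far apart, although the first Ad-GFP dish was lower than the others. The fall was -3.51 (SE 0.31, limma adjusted p = 8.5e-05), or 11.4-fold, from a linear mean of 733 to 64.1.

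Serpina5, the protein C inhibitor, had log2 values of 5.64, 6.15 and 5.94 with Ad-GFP and of 2.99, 2.98 and 2.97 with Ad-nuclear CREBH. The groups were far apart, and the latter 3 values lay in the range of dim genes. The difference was -2.93 (SE 0.16, limma adjusted p = 1.8e-05).

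Serping1 encodes the C1 inhibitor, which controls the first complement proteases and the contact system. Its log2 values were 12.15, 12.41 and 12.38 with Ad-GFP and 11.25, 11.14 and 11.14 with Ad-nuclear CREBH. The groups did not overlap, and the spread within each was small. The fall was -1.13 (SE 0.09, 2.19-fold, limma adjusted p = 4.9e-05), from a linear mean of 5090 to 2320.

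The remaining genes of this group, Serpinc1, Serpind1 and Serpinf2, did not pass. Antithrombin, encoded by Serpinc1, had log2 values of 10.43, 10.66 and 10.57 with Ad-GFP and of 11.04, 10.67 and 10.62 with Ad-nuclear CREBH. The groups overlapped, and the first Ad-nuclear CREBH dish was higher than the others. The difference was 0.22 (SE 0.13, limma adjusted p = 0.229), with an interval of 0.948- to 1.44-fold.

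Heparin cofactor II, encoded by Serpind1, had 7.94, 8.46 and 8.46 with Ad-GFP and 9.26, 8.13 and 8.18 with Ad-nuclear CREBH, with a difference of 0.24 (SE 0.31, limma adjusted p = 0.599). Again the first Ad-nuclear CREBH dish stood above the rest, and without that dish the difference was -0.13. Without the first dish of both groups Serpind1 was lower with Ad-nuclear CREBH (-0.30, limma adjusted p = 0.00700). Serpinf2, which encodes the plasmin inhibitor α2-antiplasmin, had means of 9.62 ± 0.30 with Ad-GFP and 9.97 ± 0.17 with Ad-nuclear CREBH (SD, n = 3 each), a difference of 0.35 that did not pass (SE 0.17, limma adjusted p = 0.141) and did pass without the first dish of both groups (0.28, limma adjusted p = 0.00331).

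**Figure D2:**
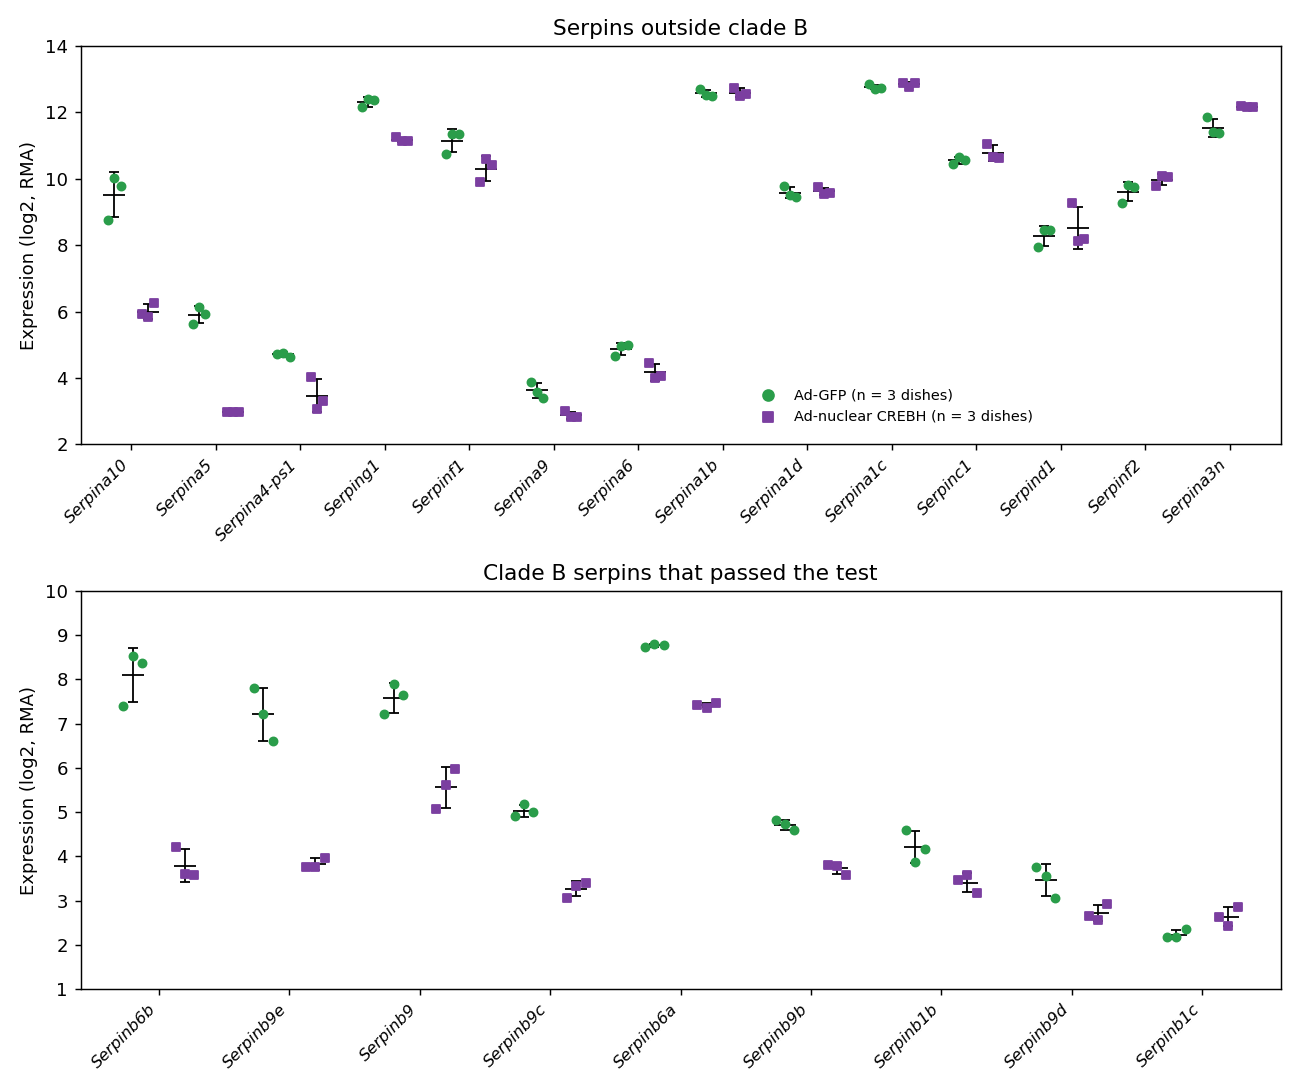
Log2 RMA values of single dishes (vertical axis) for serpins outside clade B (top) and for clade B serpins that passed the test (bottom), with bars for the mean ± SD of 3 dishes. Green circles are Ad-GFP and purple squares Ad-nuclear CREBH. Serpina10, Serpina5, Serping1, Serpinb6b and Serpinb9e separate widely, whereas Serpina1b and Serpina1c stay level at 12.57 to 12.84.

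Of the 10 hormone carriers, chaperones and other members outside clade B, 4 fell and 0 rose (median 0.08). The brightest was Serpinf1, which encodes pigment epithelium-derived factor, a secreted antiangiogenic protein that does not inhibit proteases. It had log2 values of 10.74, 11.36 and 11.34 with Ad-GFP and of 9.89, 10.60 and 10.43 with Ad-nuclear CREBH. The groups did not overlap, but the first Ad-GFP dish was only slightly above the highest Ad-nuclear CREBH dish. Serpinf1 fell by 0.84 on the log2 scale (SE 0.22, limma adjusted p = 0.0184), and the call was lost without the second (adjusted p = 0.0654) or the third Ad-GFP dish (adjusted p = 0.0647).

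Serpina6 encodes corticosteroid-binding globulin, the plasma carrier of glucocorticoids. Its log2 values were 4.67, 4.95 and 5.01 with Ad-GFP and 4.45, 3.99 and 4.07 with Ad-nuclear CREBH. No dish of one group reached the other group. The fall was -0.70 (SE 0.18, limma adjusted p = 0.0138), and it no longer passed without the third Ad-GFP dish (adjusted p = 0.0527), the second Ad-nuclear CREBH dish (adjusted p = 0.0605) or the third Ad-nuclear CREBH dish (adjusted p = 0.0568).

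Serpina4-ps1, a transcribed pseudogene, had 4.74, 4.75 and 4.64 with Ad-GFP and 4.03, 3.06 and 3.32 with Ad-nuclear CREBH. The Ad-GFP dishes were nearly alike, whereas the Ad-nuclear CREBH dishes were spread. The fall was -1.24 (SE 0.23, limma adjusted p = 0.00371), to a mean of 3.47 in the dim range. Serpina9, known from germinal center B cells, was dim and fell from a mean of 3.62 to 2.88 (-0.74, SE 0.14, limma adjusted p = 0.00357).

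Serpina12 encodes vaspin, an insulin-sensitizing adipokine, and had the highest positive difference of any serpin. Its log2 values were 6.84, 7.24 and 7.03 with Ad-GFP and 7.21, 7.86 and 8.10 with Ad-nuclear CREBH. The first Ad-nuclear CREBH dish lay within the Ad-GFP range, and the difference of 0.68 did not pass (SE 0.24, limma adjusted p = 0.0553). Without that dish it was 0.94 and did pass (limma adjusted p = 0.00573). In all it passed in 8 of 16 alternatives, among them array weights (adjusted p = 0.00301), arrays centered on their median (0.0150), quantile normalization (0.0272) and cyclic loess (0.0258), with adjusted p up to 0.190 in the others.

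Serpina11 had means of 5.78 and 5.86 and did not pass. Serpinh1, the collagen chaperone of the endoplasmic reticulum, was dim at 3.06 and 3.14, and its difference of 0.09 did not pass either (SE 0.19, limma adjusted p = 0.770). The remaining members of this group, Serpine3, Serpini1 and Serpini2, were also dim and did not pass.

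Of the 24 measured genes of clade B, the intracellular serpins, 8 fell, 1 rose and 15 did not pass (median -0.06). Of the 8 that fell, 7 were Serpinb6 and Serpinb9 genes. Serpinb6b had log2 values of 7.39, 8.53 and 8.36 with Ad-GFP and of 4.22, 3.60 and 3.57 with Ad-nuclear CREBH. The lowest Ad-GFP dish was well above the highest Ad-nuclear CREBH dish. The fall was -4.30 (SE 0.32, limma adjusted p = 4.0e-05), from a linear mean of 273 to 13.9, and the latter is in the dim range. The Ad-GFP mean is under 300, so Serpinb6b did not meet the study's criteria.

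Serpinb6a, an inhibitor of cathepsin G and related proteases, had 8.72, 8.80 and 8.77 with Ad-GFP and 7.43, 7.36 and 7.47 with Ad-nuclear CREBH. The dishes of each group were close together (SDs of 0.04 and 0.06), and the groups did not overlap. The fall was -1.34 (SE 0.12, 2.54-fold, limma adjusted p = 7.0e-05), from a linear mean of 435 to 171. The paralogs Serpinb6c, Serpinb6d and Serpinb6e were dim in both groups (2.25 to 2.96) and did not pass.

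The Serpinb9 family fell in all 5 measured genes, although Serpinb9d was dim in both groups. Serpinb9, the intracellular inhibitor of granzyme B, had log2 values of 7.22, 7.89 and 7.65 with Ad-GFP and of 5.07, 5.62 and 5.99 with Ad-nuclear CREBH. The groups did not overlap, and the fall was -2.03 (SE 0.27, 4.08-fold, limma adjusted p = 5.6e-04).

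Serpinb9e had 7.80, 7.22 and 6.61 with Ad-GFP and 3.75, 3.76 and 3.97 with Ad-nuclear CREBH. The Ad-GFP dishes were spread over more than 1 log2 unit, yet the lowest remained far above the other group. The fall was -3.38 (SE 0.28, limma adjusted p = 6.2e-05), from a linear mean of 148 to 14.2, again in the dim range.

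Serpinb9c had 4.91, 5.19 and 5.00 with Ad-GFP and 3.07, 3.34 and 3.40 with Ad-nuclear CREBH, a fall of -1.76 (SE 0.15, limma adjusted p = 6.2e-05). Serpinb9b fell from a mean of 4.72 to 3.73 (-0.99, limma adjusted p = 6.9e-04). Serpinb9d was dim in both groups and fell from 3.47 to 2.72 (-0.75, SE 0.19, limma adjusted p = 0.0136). This call was lost without the second Ad-nuclear CREBH dish (adjusted p = 0.0558). The family members with TGACGT before their starts (-1.76, -0.75 and -3.38) and those without it, Serpinb9 and Serpinb9b (-2.03 and -0.99), all fell. Their Ad-GFP means ranged from 3.47 to 7.59, and all but Serpinb9 ended in the dim range. The sizes of these falls therefore cannot be compared, and the part of the motif was not tested. Whether probes of this family bind transcripts of its other members was not tested.

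The Serpinb1 genes, counterparts of the neutrophil elastase inhibitor, did not move together. Serpinb1b fell from a mean of 4.22 to 3.41, the latter in the dim range (-0.81, SE 0.20, limma adjusted p = 0.0147). This call was lost without the third Ad-nuclear CREBH dish (adjusted p = 0.0601). Serpinb1a had means of 4.53 and 4.75 and did not pass (limma adjusted p = 0.422).

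Serpinb1c rose, but from 2.17, 2.18 and 2.35 with Ad-GFP to 2.64, 2.42 and 2.86 with Ad-nuclear CREBH, which is the range of the dimmest genes. Its rise of 0.41 (SE 0.12, limma adjusted p = 0.0276) did not pass without the first Ad-GFP dish (adjusted p = 0.0728), the second Ad-GFP dish (adjusted p = 0.0856), the first Ad-nuclear CREBH dish (adjusted p = 0.0683) or the third Ad-nuclear CREBH dish (adjusted p = 0.0729).

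Serpinb8, an inhibitor of furin, had 4.98, 5.21 and 5.15 with Ad-GFP and 5.44, 4.34 and 4.33 with Ad-nuclear CREBH. The first Ad-nuclear CREBH dish was the highest of all 6 and the other two were the lowest, so the difference of -0.41 did not pass (SE 0.29, limma adjusted p = 0.331). Without that dish it was -0.78 (limma adjusted p = 0.00674). The other clade B genes that did not pass, among them Serpinb2 (plasminogen activator inhibitor type 2) and Serpinb5 (maspin), were dim. Over the whole family 20 of the 30 genes that did not pass had both group means under 4, with differences from -0.15 to 0.31, and the other 10 ranged from -0.41 to 0.68.

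Clade B serpins are also abundant in leukocytes, so markers of other liver cells were read on the same arrays. The summed signal of 10 macrophage markers was 11.81 to 12.11 on the log2 scale with Ad-GFP and 10.32 to 11.40 with Ad-nuclear CREBH, with no overlap. Cd68 (means of 11.49 and 10.35) and Cd14 (9.84 and 6.76) carry most of this sum, and 6 of the 10 markers did not pass. Cd14 (-3.07, limma adjusted p = 2.5e-05), Cd68 (-1.13, adjusted p = 0.0215) and Lyz2 (-0.57, adjusted p = 0.0403) fell, whereas Csf1r rose (0.61, adjusted p = 0.0254). The Kupffer cell markers Clec4f (3.67 and 3.93) and Vsig4 (3.18 and 3.13) were dim in both groups, and neither they nor Adgre1, Itgam, Marco and Ptprc passed. The part of macrophages in the falls of Serpinb6a, Serpinb6b and the Serpinb9 genes was not tested, and in bulk samples fewer cells of a type and less RNA per cell cannot be told apart.

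Markers of neutrophils, mast cells, T cells and NK cells passed in 0 of 8 genes (sums of 6.38 to 6.44 and 6.41 to 6.64, the 2 brightest being Kit and S100a9), as did 0 of 8 endothelial markers (8.14 to 8.61 and 8.19 to 8.51, Cdh5 and Pecam1). Of 10 stellate cell and fibroblast markers, Tagln fell (-1.15, limma adjusted p = 0.00213), with sums of 7.56 to 7.71 and 7.40 to 8.57, while Col1a1 and Col1a2 did not pass. Col1a1 was nevertheless higher on the second and the third Ad-nuclear CREBH arrays (7.30 and 7.51) than on the other 4 (4.77 to 5.25). Of 5 cholangiocyte markers, Epcam rose (1.74), Krt19 fell (-1.06) and the brightest, Sox9, did not pass, with sums of 7.93 to 9.17 and 8.68 to 9.26. Of 8 hepatocyte markers, Apoa1 rose (0.74), Fgb (-2.29) and Cps1 (-1.21) fell, and the sums were 14.70 to 14.76 and 14.68 to 14.85. Albumin, the defining hepatocyte product, had means of 13.28 and 13.27, close to the highest value of the arrays.

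Most of the serpins lie in 3 clusters, and these differed in their counts. On chromosome 1, 0 of the 11 clade B genes of the cluster passed, and all of them but Serpinb8 were dim. On chromosome 12, 5 of 14 fell and 1 rose (median 0.03). On chromosome 13, 8 of 13 fell and 1 rose (median -0.81). The same shares among all genes are given above (18.2% fell, 19.2% rose), and no test of the clusters was made.

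Among the genes measured, in their RefSeq order on chromosome 13 (GRCm38.p6), Serpinb6b, Serpinb9, Serpinb9b, Serpinb1b, Serpinb9c, Serpinb9d and Serpinb9e follow one another, and all 7 fell. Of these, Serpinb9d was dim in both groups. Copies of Serpinb9 read only on features with several symbols are not in this order. Serpinb6d, Serpinb6e and Serpinb6c are next among those measured and did not pass, and Serpinb6a at the end of the row fell. The only other gene measured within this span, Nqo2, which encodes a quinone reductase and is no serpin, fell too (-3.46, SE 0.28, limma adjusted p = 5.4e-05).

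On chromosome 12 the order of the measured genes was mixed. Serpina10 and Serpina6 fell at one end, the α1-antitrypsin genes Serpina1f, Serpina1b, Serpina1d and Serpina1c beside them did not pass, and Serpina9, Serpina4-ps1 and Serpina5 fell further along. Serpina12 lies between Serpina9 and Serpina4-ps1 and did not pass, and Serpina3n at the other end rose. No other measured gene lay within the spans on chromosomes 1 and 12.

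**Figure D3:**
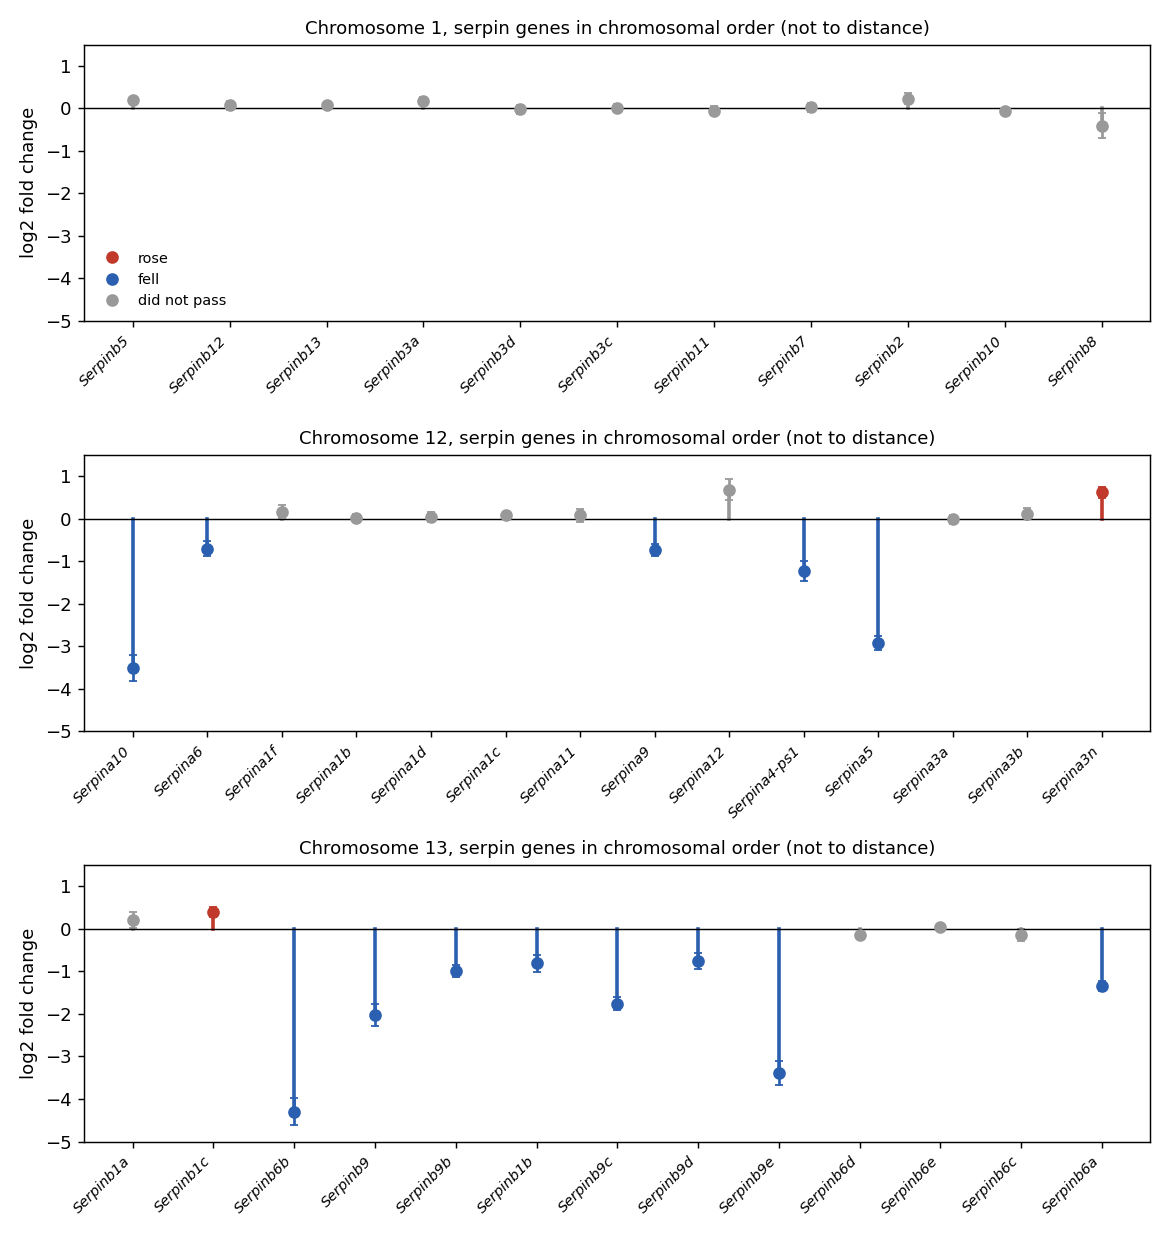
Log2 fold change, Ad-nuclear CREBH minus Ad-GFP (vertical axis, bars for the SE), of the serpins of 3 clusters in their order along the chromosome (horizontal axis, not to distance). Only measured genes are drawn. On chromosome 13 a run of 7 genes fell from Serpinb6b (-4.30) to Serpinb9e (-3.38), and both of these ended in the dim range. On chromosome 12 fallen genes alternate with others, and on chromosome 1 none passed.

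The proteases that serpins inhibit, with their cofactors and a clearance receptor, were read as a list of which 31 genes were measured. Of these 5 rose, 7 fell and 19 did not pass (median -0.03), shares close to the 19.2% and 18.2% of all genes. The 4 largest falls were those of F11 (factor XI, -4.27, SE 0.17, limma adjusted p = 1.3e-05), C1s1 (-2.70, adjusted p = 6.4e-05), C1ra (-1.96, adjusted p = 8.3e-04) and Masp1 (-1.45, adjusted p = 0.00569). The 4 largest rises were those of St14 (matriptase, 2.91, adjusted p = 1.1e-04), Plat (tissue plasminogen activator, 1.59, adjusted p = 0.00926), Furin (1.25, adjusted p = 0.00169) and F10 (factor X, 1.01, adjusted p = 2.0e-04). The brightest that did not pass were Vtn, Ctsl and F12.

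Set beside their inhibitors, these proteases went in both directions. The partners below are named as textbook targets, whatever their rank. With the C1 inhibitor gene Serping1 (-1.13), its complement targets C1ra, C1s1 and Masp1 fell, whereas F12 of the contact system was at 0.37 and did not pass (limma adjusted p = 0.0769).

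With Serpina10 (-3.51), its target F11 fell by 4.27 on the log2 scale while its target F10 rose by 1.01, and its cofactor Proz was at -0.76 (limma adjusted p = 0.0975). F11 had log2 values of 9.65, 9.33 and 9.15 with Ad-GFP and of 5.27, 5.10 and 4.93 with Ad-nuclear CREBH. F10 had 9.19, 9.46 and 9.30 with Ad-GFP and 10.37, 10.24 and 10.38 with Ad-nuclear CREBH. Neither gene showed overlap between groups.

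With Serpina5 (-2.93), its target Proc was at -0.34 and did not pass (limma adjusted p = 0.0809). With Serpinc1 (0.22), thrombin's gene F2 fell slightly (-0.28, SE 0.08, limma adjusted p = 0.0264) and F9 was at 0.09 (adjusted p = 0.727), beside the rise of F10 and the fall of F11, which antithrombin also inhibits. With Serpinf2 (0.35), its target Plg was at -1.04 and did not pass (SE 0.37, limma adjusted p = 0.0610). Lrp1, the receptor that clears serpin complexes, fell (-1.05, limma adjusted p = 0.0116). The leukocyte proteases Elane, Prtn3, Ctsg, Cma1, Gzma and Gzmb, among them the targets of Serpinb1a, Serpinb6a, Serpinb9 and Serpina3n, were dim in both groups (means of 2.53 to 3.34) and did not pass.

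**Figure D4:**
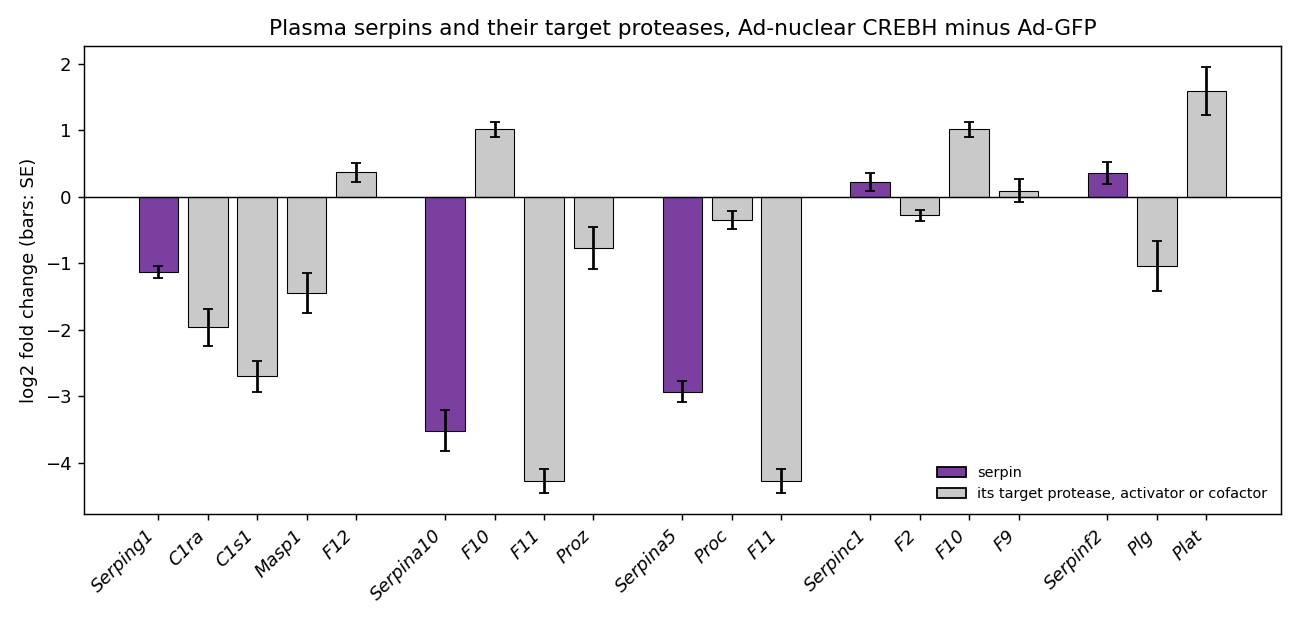
Log2 fold change, Ad-nuclear CREBH minus Ad-GFP (vertical axis, bars for the SE, n = 3 dishes per group), of 5 plasma serpins (purple) and of their target proteases, activators or cofactors (gray). Serping1 and its complement targets are all below 0, whereas F10 is at 1.01 and F11 at -4.27 beside Serpina10.

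Protease inhibitors of other families were listed for comparison, and 27 were measured. Of these 11 fell, 3 rose and 13 did not pass (median -0.38), while 18.2% of all genes fell and 19.2% rose (median 0.04). The largest falls were those of Timp3 (metalloprotease inhibitor, -2.24, limma adjusted p = 0.00704), Tfpi2 (-2.06, adjusted p = 6.2e-05), Slpi (-1.91, adjusted p = 7.5e-05) and Itih2 (-1.28, adjusted p = 0.00165). Spint1 (0.75, adjusted p = 0.00533), Itih1 (0.57, adjusted p = 0.0107) and Cst3 (0.48, adjusted p = 0.00713) rose. The brightest that did not pass were Pzp, Itih4 and Mug1. This list holds Agt, angiotensinogen, which is a serpin by structure without the symbol and did not pass (0.31, adjusted p = 0.249).

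Regulators known to act on liver serpin genes were measured in 12 genes, of which 5 rose and 4 fell, against 19.2% and 18.2% of all genes. Those of the acute-phase response went apart, since the interleukin-6 receptor gene Il6ra (from a mean of 7.31 to 9.31, limma adjusted p = 1.5e-04), its partner Il6st (0.65, adjusted p = 0.00537) and Cebpb (1.44, adjusted p = 0.00166) rose whereas Osmr, the oncostatin M receptor (-3.04, adjusted p = 4.5e-05), Cebpd (-0.87, adjusted p = 0.00897) and Stat3 (-0.50, adjusted p = 0.0409) fell. Foxa1 (1.65, adjusted p = 7.2e-05) and Foxa3 (1.41, adjusted p = 0.00194) rose, and the glucocorticoid receptor gene Nr3c1 fell (-1.10, adjusted p = 0.00250). Hnf4a, Cebpa and Foxa2 did not pass.

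The medians of the arrays were 5.12 to 5.30 with Ad-GFP and 5.05 to 5.12 with Ad-nuclear CREBH, and centering on them changed the counts as given above. The first Ad-GFP dish correlated least with its own group (mean r across genes of 0.986 against 0.991 for the other two), and the first Ad-nuclear CREBH dish likewise (0.991 against 0.994). Without the first dish of both groups, all 15 fallen serpins still fell, Serpinb8 and Serpind1 joined them, and Serpina3n, Serpina12, Serpinb3a and Serpinf2 rose while Serpinb1c did not pass.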

How the data were processed

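RNA of 6 dishes, 3 per group, was measured on Affymetrix Mouse Gene 1.1 ST arrays. Values were deposited on the log2 scale after RMA by the authors, a method of background correction, quantile normalization and probe summary. The submitters' processing notes give no RMA version, and the genome build and array definition are not given in the sources used here. Depth does not apply to arrays, and their number limits the precision. Symbols came from the platform annotation: of 35556 features, 21218 carried 1 symbol and were used, 1881 carried several and 12457 none.

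Groups came from the sample labels. Differences (Ad-nuclear CREBH minus Ad-GFP) were tested on all 18820 genes using limma 3.58.1 in R 4.3.3, by lmFit and eBayes with an intensity trend and without covariates. There were 4 residual and 3.97 prior degrees of freedom, and p-values had Benjamini-Hochberg adjustment over all genes. Intervals are limma's at 95%. An exact permutation test of 3 against 3 cannot go below p = 0.1 and was not used. Linear means are geometric, the mean log2 value taken back to the linear scale. Marker sums are log2 of summed linear values. Array numbers were not used as pairs in the main fit, since the sources do not say what a number marks. Same-numbered dishes correlated in their deviations at 0.178, 0.0729 and 0.139, and dishes of different numbers at -0.173 to 0.12. The replicate block, which fits the number as a factor, was therefore run as an alternative. The script was tested on simulated data. Promoters came from RefSeq (GRCm38.p6). Figures used matplotlib 3.10.9.

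The members and lists were chosen with earlier results of these data known. Single-dish values are given for serpins that passed with a log2 fold change of at least 1 in size or had a mean of at least 10, for members shown for contrast, and for the brightest of each role. Of the other lists, the 4 largest rises and falls and the 3 brightest that did not pass are named, and of marker lists the 2 brightest and those that passed, with other partners and regulators added for their known roles after their values were seen. Alternatives were other variance priors (among them an intensity-based moderated statistic), array weights, the replicate block, 3 normalizations and the mean of a gene's features. Others left out genes under the median level of all genes (log2 5.24) in both groups, left out single dishes, or used other thresholds. Leaving out both first dishes was chosen after seeing the data.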

Additional observations from a re-analysis of the deposited data

How the results depend on the processing

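Serpina10, Serpina5, Serping1, Serpinb6a, Serpinb6b, Serpinb9 and Serpinb9e fell in every alternative, and 11 of the 15 fallen serpins did in every alternative that included them. The count of fallen serpins ranged from 13 to 16 with 1 dish left out and was 11 at an adjusted p under 0.01. It was 8 in a fit of only the genes with a group mean above the median level of all genes (log2 5.24), because 17 serpins remained there. The count of risen serpins, 2, moved as well and was 1 without an intensity trend or at an adjusted p under 0.01, 6 with array weights, 4 with the replicate block (15 still fell, and 3 met the study's criteria), 5 with arrays centered on their median, 4 without both first dishes, and 1 to 2 with 1 dish left out. Serpina12 and Serpinf2 rose with the replicate block (adjusted p = 0.0212 and 0.0248). Serpinb9d missed the threshold with centering (adjusted p = 0.0510). Serpins that met the study's criteria numbered 1 with both group means over 300, 9 with no minimum, and 3 to 5 with 1 dish left out.

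Differences near 0 changed sign. Serpina1b was at -0.239 with cyclic loess and ranged from -0.0496 to 0.0866 with 1 dish left out, below 0 without the third Ad-GFP dish (-0.0136) or the first Ad-nuclear CREBH dish. Serpina1c was at -0.195 with cyclic loess. Serpina1d was at -0.124 with quantile normalization and -0.0449 with cyclic loess, and ranged from -0.0179 to 0.141 with 1 dish left out, below 0 without the same dishes (-0.0127 for the third Ad-GFP dish). Serpina11 ranged from -0.0127 to 0.157, below 0 without the first Ad-GFP dish. Serpind1 was at -0.153 with array weights and -0.300 without both first dishes, and ranged from -0.126 to 0.438, below 0 without the first Ad-nuclear CREBH dish. The causes were not tested.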
